A study of Mus musculus with 4 samples.

Results

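The cyclin-dependent kinase (CDK) inhibitors are small proteins that bind the kinases driving the cell cycle, or their cyclins, and slow or stop entry into DNA replication. Their genes were read in lymphoid-primed multipotent progenitors (LMPPs), an early blood progenitor of the bone marrow, from wild-type and Lyl1-null mice. The members were taken by name: every probe set whose platform gene symbol was exactly Cdkn1a, Cdkn1b, Cdkn1c, Cdkn2a, Cdkn2b, Cdkn2c or Cdkn2d. This gave 9 of the 45037 probe sets on the array, for 7 genes. Cdkn1a and Cdkn1b had 2 probe sets and the other genes had 1.

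There were 4 libraries, 2 per genotype, each hybridised to its own array of short probes placed toward the 3′ end of transcripts. Both groups were C57Bl/6 mice of 6 to 8 weeks, and their LMPPs had been sorted as lineage-negative cells positive for Kit and Sca-1 with high Flt3. One group was wild type and the other carried a null allele of Lyl1, whose product is a helix-loop-helix protein that regulates transcription in blood progenitors. The labels give neither the sex of the mice nor whether animals were pooled or a group's libraries came from separate mice. The p-values therefore cover only how far these samples scatter. Within wild type that scatter may be technical, while the libraries labelled Lyl1-null differed from each other in Lyl1, Xist and Eif2s3y, as given below. Expression is given on the log2 scale after RMA, a method that corrects background, makes arrays comparable and gives each probe set 1 value from its probes. With 2 libraries against 2, an exact permutation test of a single value cannot go below p = 0.333, so the test was limma's fit across all genes with Benjamini-Hochberg adjustment.

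As background, the inhibitors form 2 families. The Cip/Kip proteins p21 (Cdkn1a), p27 (Cdkn1b) and p57 (Cdkn1c) bind cyclin-CDK complexes broadly. The INK4 proteins p16 (Cdkn2a), p15 (Cdkn2b), p18 (Cdkn2c) and p19 (Cdkn2d) bind Cdk4 and Cdk6 and keep them from D-type cyclins. Cdkn2a also encodes Arf from another reading frame, which stabilises p53. In blood, p21, p27, p57 and p18 are known for restraining the cycling of stem and progenitor cells, and p21 is a textbook target of p53.

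The labels held for 1 of the libraries labelled Lyl1-null and not for the other. Lyl1 read 12.34 and 12.29 in wild type, 5.14 in replicate 1 of the libraries labelled Lyl1-null and 10.32 in replicate 2, which goes against its label. That second library also read 14.26 for Xist, against 5.81 to 6.30 elsewhere, and 8.44 for the Y-linked Eif2s3y, against 10.07 to 10.15. It differed at least 2-fold from each other library in 518 to 859 of the 11196 genes tested, where the other 3 libraries differed among themselves in 42 to 128. Results for the inhibitors are therefore given for both libraries labelled Lyl1-null separately, with replicate 1 before replicate 2 wherever values come in pairs. Which part of Lyl1 the null allele removes, relative to the 1 probe set of the gene, is not stated in the labels. All 9 progenitor markers found on the array, such as Flt3, Kit and Cd34, lay above the expression filter, the median of all probe-set means at a log2 value of 5.69. Their summed level on the linear scale was 40351 and 41667 in wild type, against 39838 and 33745 under the Lyl1-null label. Of the 9, Kit, Cd34, Flt3, Ptprc and Spn were lower in both libraries labelled Lyl1-null than in both of wild type. Il7r and Satb1 were higher. These 5 and 2 markers stand beside 17.0% and 27.3% of all probe sets. Those shares, used for the other marker lists too, count every probe set, also below the filter. Each marker was read from its brightest probe set, so the sets compared are unlike.

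Cdkn1a encodes p21, and its sequences are shown because it was the inhibitor whose values moved most and because RefSeq places 2 transcript starts at the gene. The 250 bases before each start were read from RefSeq promoters of build GRCm38.p6, plus strand. The upstream start follows chr17:29090729-29090978 and the downstream start follows chr17:29093519-29093768. Capitals mark matches to CANNTG, the E-box letters that basic helix-loop-helix proteins such as Lyl1 recognise.
Cdkn1a upstream start: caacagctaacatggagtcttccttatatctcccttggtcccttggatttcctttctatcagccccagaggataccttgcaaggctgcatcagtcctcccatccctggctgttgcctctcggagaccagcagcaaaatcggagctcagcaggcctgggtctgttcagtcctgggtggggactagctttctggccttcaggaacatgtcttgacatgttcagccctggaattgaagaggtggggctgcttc
Cdkn1a downstream start: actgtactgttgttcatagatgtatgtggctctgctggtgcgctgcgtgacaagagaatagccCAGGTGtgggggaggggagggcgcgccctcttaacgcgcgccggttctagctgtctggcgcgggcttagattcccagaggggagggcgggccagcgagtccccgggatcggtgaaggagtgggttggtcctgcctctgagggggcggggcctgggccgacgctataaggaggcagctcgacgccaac
The downstream stretch held 1 match, CAGGTG, which began 187 bases before the start, and a second, CAACTG, began 4 bases before it and ran into the transcript. Upstream, the 250 bases held none, and CAGCTG began at base 38 of the transcript. CANNTG was found in 4 of the 9 promoters of 300 bases that RefSeq lists for the 7 genes, and in 72.3% of 32851 promoters of that length. Besides both of Cdkn1a, the 4 were 1 promoter of Cdkn2b and 1 of 2 of Cdkn2c. The more particular CAGCTG, a subset of CANNTG, stood in 1 of the 9, the upstream one of Cdkn1a, against 16.3% of all promoters. CAGATG, another subset, and the GATA letters AGATAA stood in none of the 9, against 17.2% and 11.2% of all. Both strands were searched, 6 of the 7 genes matched the promoter table, all but Cdkn1c, and a match describes letters, not binding.

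**Figure D1:**
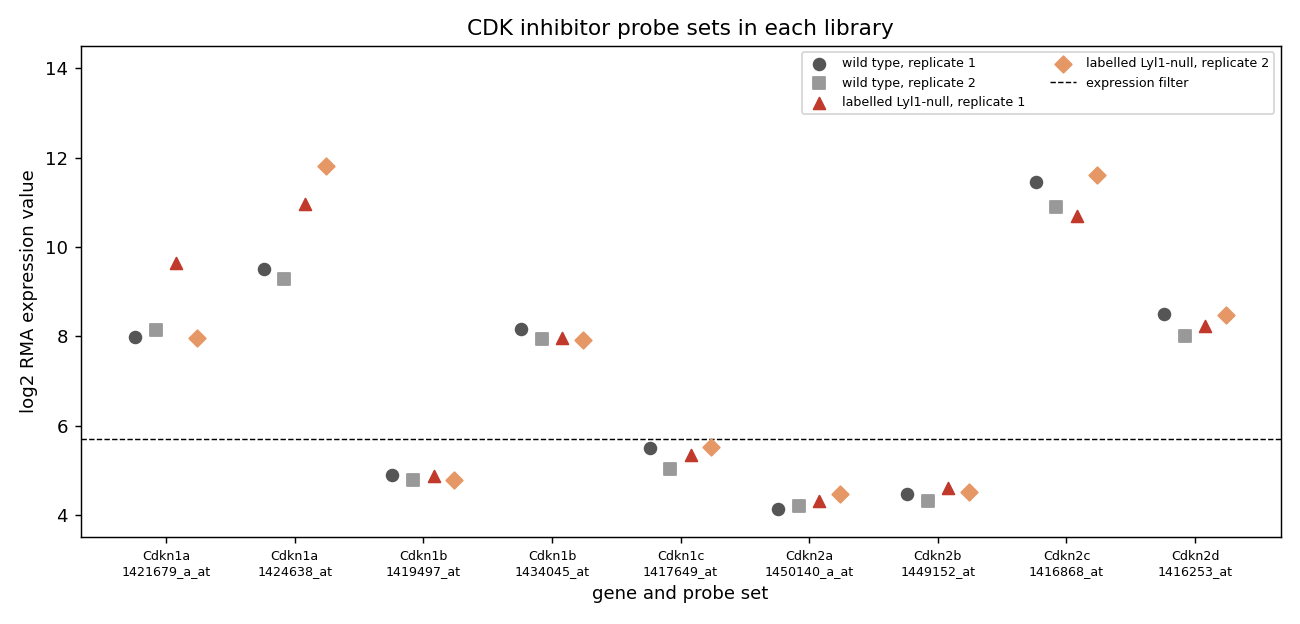
Log2 RMA expression values (vertical axis) of the 9 CDK inhibitor probe sets (horizontal axis) in each of the 4 libraries, 1 point per library, with the expression filter at 5.69 as a dashed line. Cdkn1a probe set 1424638_at stands apart from wild type in both libraries labelled Lyl1-null, 1421679_a_at in replicate 1 alone, and 4 probe sets lie below the filter.

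Of the Cip/Kip genes, Cdkn1a gave the one large difference among the inhibitors. Its brighter probe set, 1424638_at, read 9.51 and 9.28 in wild type, 10.96 in replicate 1 labelled Lyl1-null and 11.80 in replicate 2. Both of the latter stood above both wild-type values, by far more than the 0.23 that separated the wild-type libraries. In bulk RNA, more cells with a transcript and more of it per cell cannot be told apart. The means were 9.40 ± 0.16 and 11.38 ± 0.59 (SD, n = 2 each), a difference of 1.98 on the log2 scale (SE 0.30) or 3.95-fold. Over all 4 libraries this did not pass the limma test (adjusted p = 0.297). It was the 6th largest positive difference of the 11196 genes tested, of which 0.00893%, 1 gene, passed in either direction. That gene was Ctse, which encodes cathepsin E and read lower.

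Set against wild type alone, each library labelled Lyl1-null gave a call for Cdkn1a. Replicate 1 was higher by 1.56 (SE 0.18, adjusted p = 0.0456), in a fit where 0.0893% of genes passed upward. Replicate 2 was higher by 2.40 (SE 0.18, adjusted p = 0.00433), in a fit where 3.94% passed upward. These are limma fits in which the lone library is assumed to vary like wild type, and both use the same wild-type libraries. In the same 2 fits over all 45037 probe sets without the filter, where 0.00222% passed in each, 1424638_at did not pass (adjusted p = 0.634 and 0.0944). The calls thus held in the fits of filtered genes and not in those of all probe sets.

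The other Cdkn1a probe set split the libraries labelled Lyl1-null. Probe set 1421679_a_at, whose suffix marks a set that matches several transcripts of a gene, read 7.99 and 8.14 in wild type, 9.65 in replicate 1 and 7.96 in replicate 2. Only the first of these lay above wild type, and the second lay just below it. Replicate 1 thus differed from the wild-type mean by 1.58 here and by 1.56 in the brighter probe set, a gap of 0.019 between probe sets. For replicate 2 the differences were −0.11 and 2.40, a gap of 2.51. Among 4717 genes with at least 2 probe sets above the filter, the median gap was 0.22 in replicate 1 and 0.50 in replicate 2. In replicate 2, 16 of those genes, or 0.339%, Cdkn1a included, had a gap at least as large as that of Cdkn1a. The gap is the range over all such probe sets of a gene, so genes with more than 2 can reach a larger one. This is a description over genes and no test. Over all 4 libraries 1421679_a_at differed by 0.74 (SE 0.52, adjusted p = 0.609 over all probe sets). With the mean of both probe sets, Cdkn1a differed by 1.36 (adjusted p = 0.245).

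Cdkn1b encodes p27, which binds cyclin E and cyclin A complexes with Cdk2. Its probe set 1434045_at read 8.16 and 7.95 in wild type, 7.96 in replicate 1 labelled Lyl1-null and 7.90 in replicate 2. The groups overlapped, and the difference of −0.12 (SE 0.17, adjusted p = 0.785) was smaller than the 0.22 between the wild-type libraries. The second probe set, 1419497_at, lay below the filter at 4.89 and 4.77 in wild type and 4.87 and 4.78 in the other group, with equal means. Cdkn1c encodes p57, known from quiescent blood stem cells, and its 1 probe set, 1417649_at, also lay below the filter. It read 5.50 and 5.03 in wild type, against 5.34 and 5.53 under the Lyl1-null label, with overlapping groups and a difference of 0.17 (SE 0.21, adjusted p = 0.751 over all probe sets).

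**Figure D2:**
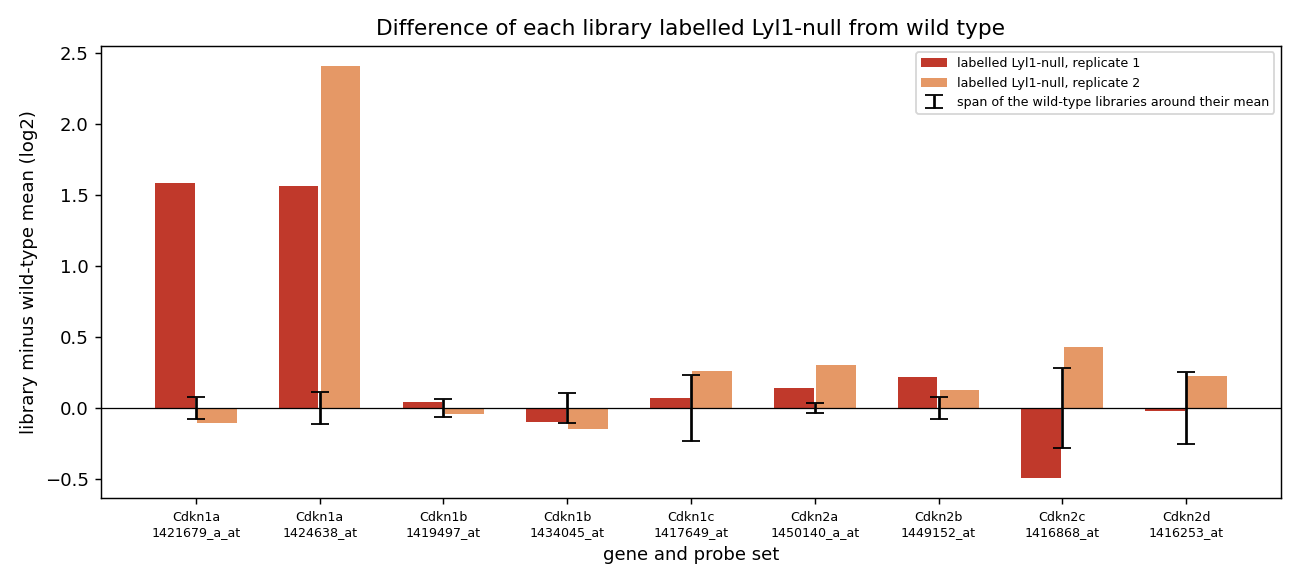
Difference of each library labelled Lyl1-null from the wild-type mean (log2, vertical axis) for each CDK inhibitor probe set (horizontal axis); bars are single libraries and the black lines span the 2 wild-type libraries around their mean. Bars for Cdkn1a reach 1.58 in replicate 1 and 2.40 in replicate 2, while no bar of the other genes exceeds 0.49 in size.

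The INK4 genes showed small differences only. Cdkn2c encodes p18, an inhibitor of Cdk6 in lymphocytes and stem cells, and its probe set 1416868_at read 11.46 and 10.90 in wild type. The libraries labelled Lyl1-null lay on either side of these values, replicate 1 at 10.69 and replicate 2 at 11.61. Against the wild-type mean they differed by −0.49 and 0.43, and the 0.56 between the wild-type libraries was larger than either. The group difference was −0.03 (SE 0.36, adjusted p = 0.982). Cdkn2d encodes p19, and its probe set 1416253_at read 8.50 and 8.00 in wild type, against 8.23 and 8.47 under the Lyl1-null label. Both of the latter fell between the wild-type values, and the difference was 0.10 (SE 0.23, adjusted p = 0.876).

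Cdkn2a and Cdkn2b are neighbours in the genome and are held silent by Polycomb proteins in many young tissues. Both lay below the filter in every library, so their values say little about a level. Cdkn2a probe set 1450140_a_at read 4.12 and 4.20 in wild type, against 4.30 and 4.46 under the Lyl1-null label. Cdkn2b probe set 1449152_at read 4.47 and 4.31 in wild type and 4.61 and 4.52 in the others. In each the groups did not overlap, with differences of 0.22 (SE 0.16, adjusted p = 0.608) and 0.17 (SE 0.16, adjusted p = 0.669) over all probe sets. Such separation was common in the deposited values, where 27.3% of all probe sets had both libraries labelled Lyl1-null above both wild-type libraries and 17.0% had both below. For the inhibitors these counts were 3 of 9, with 1424638_at of Cdkn1a as the third, and 0 of 9.

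Counted over the family, 4 of the 7 genes passed the filter, Cdkn1a, Cdkn1b, Cdkn2c and Cdkn2d, and 0 of these passed the limma test over all 4 libraries at the 0.05 threshold after adjustment. Before adjustment 1 was under 0.05 in that limma fit, Cdkn1a, as were 766 of all genes tested. Of the 9 probe sets, 0 passed in the fit over all probe sets, where 0.00444% passed. Among the 6 genes other than Cdkn1a, the largest group difference was 0.22, and the largest of any single library was 0.49.

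Markers of neutrophils, a cell type the sort should leave out, moved beside Cdkn1a. Of 10 neutrophil granule markers found on the array, 5 lay above the filter, and 9 stood higher in both libraries labelled Lyl1-null than in both of wild type, as did 27.3% of all probe sets, while 0 stood lower in both, as did 17.0%. Their summed linear level was 848 and 611 in wild type, 2310 in replicate 1 labelled Lyl1-null and 1962 in replicate 2. Lcn2, Mmp8, Mmp9, S100a9 and Cd177 lay below the filter. Ltf lay below it in both wild-type libraries, at 4.93 and 5.10, and passed only through the other group, at 6.77 and 6.19. The part of the neutrophil markers in the Cdkn1a values was not tested. Of 10 mature T and NK cell markers, 6 lay above the filter, and Cd3d, Cd3g, Cd5 and Gzma lay below it. In the same way 7 stood higher and 2, Klrd1 and Ccl5, lower, beside the same 27.3% and 17.0% of all probe sets. Their summed levels were 3100 and 2992 in wild type against 3852 and 3331. Nkg7 alone made up most of each sum, at log2 values of 11.24 and 11.18 in wild type against 11.66 and 11.42. The sums for the B lineage (5569 and 6270 against 7121 and 4829), for monocytes, macrophages and dendritic cells (3142 and 3396 against 3159 and 3030) and for erythroid cells and megakaryocytes (3459 and 2862 against 3248 and 3251) overlapped between the groups. Single markers did not all overlap. Of 11 B-lineage markers 4 stood higher and 1 lower, beside the same shares of all probe sets. Of 11 monocyte, macrophage and dendritic markers 3 stood higher and 3 lower. Of 10 erythroid and megakaryocyte markers, Tfrc, Itga2b and Gp1bb, the last below the filter, stood higher, and Car1 and Pf4 lower. In these lists 8, 6 and 7 markers lay above the filter.

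Among all genes tested, those with values most like the brighter Cdkn1a probe set were found by the Euclidean distance over the 4 libraries, each gene centred on its wild-type mean. The nearest were the phosphodiesterase gene Pde2a (distance 0.64), the neutrophil granule gene Ngp (0.72), the calcium-binding S100a8 (0.91), the transcription factor gene Tfcp2l1 (0.91) and the endophilin gene Sh3gl3 (0.93). The median distance over the 11195 other genes was 2.96. Genes that did not move also stand far from Cdkn1a by this measure. As the 5 were chosen by it, their shared direction follows from the choice and is no separate result. Pde2a read 11.76 and 11.49 in wild type, 13.07 in replicate 1 labelled Lyl1-null and 13.40 in replicate 2. Like Cdkn1a it was higher in replicate 2 than in replicate 1, by 0.33 against 0.84 for Cdkn1a. Sh3gl3 shared that order, whereas Ngp, S100a8 and Tfcp2l1 were higher in replicate 1. None of the 5 passed over all 4 libraries, with adjusted p-values between 0.191 and 0.440 in limma. Tfcp2l1, at 5.15 and 4.94, and Sh3gl3, at 5.26 and 5.15, lay below the expression filter in both wild-type libraries. Tfcp2l1, at 7.04 and 6.64, and Sh3gl3, at 6.26 and 6.83, reached the filter only through the libraries labelled Lyl1-null. Their wild-type values carry signal near background, so the size of their differences is not resolved.

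**Figure D3:**
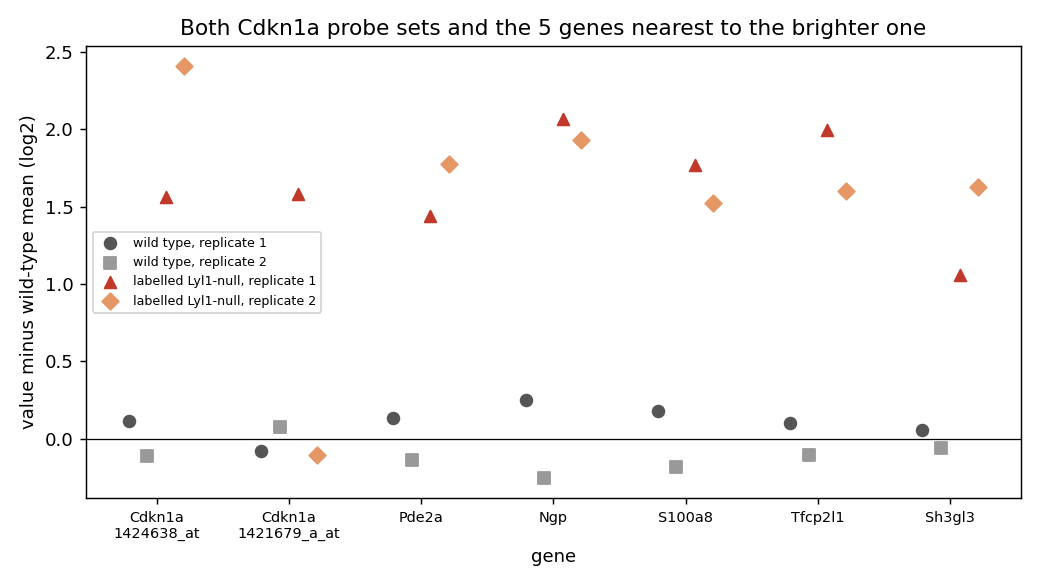
Values minus the wild-type mean (log2, vertical axis) in each of the 4 libraries for both Cdkn1a probe sets and the 5 genes nearest to the brighter one (horizontal axis), 1 point per library. In all 6 genes both libraries labelled Lyl1-null lie above wild type, except for probe set 1421679_a_at of Cdkn1a, where replicate 2 lies at −0.11. The 5 genes were chosen for values near those of Cdkn1a, so their direction follows from that choice.

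The targets of the inhibitors, the cyclins, CDKs, retinoblastoma proteins and E2F factors of the G1 to S transition, showed little common shift. Of 29 tested genes, 12 had a positive and 17 a negative difference, with a median of −0.03 beside −0.05 over all genes tested. The median was −0.017 and −0.030 in the libraries labelled Lyl1-null, beside −0.0086 and −0.078 over all genes tested. None passed over all 4 libraries, and 1 had an unadjusted p under 0.05, Rbl2, which encodes the retinoblastoma relative p130. It read 6.93 and 6.95 in wild type, against 6.60 and 6.30 under the Lyl1-null label, a difference of −0.49 (SE 0.18, adjusted p = 0.644). E2f5, a repressive E2F, had 0.51 (SE 0.22, adjusted p = 0.644). Mki67, the proliferation marker Ki-67, named here after its values had been seen, read 11.41 and 11.27 against 11.12 and 10.92, a difference of −0.32 (SE 0.17, adjusted p = 0.644).

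Larger changes in this group belonged to the library labelled Lyl1-null replicate 2. Against wild type alone it had 4 of the 29 genes past the threshold upward and 2 downward, where 3.94% of all genes passed upward and 10.8% downward. E2f7 (1.47), E2f1 (1.17), E2f5 (0.77) and Cdc25a (0.72), the phosphatase that activates Cdk2, were higher, and Ccnd3 (−0.83), the cyclin D3 gene, and Rbl2 (−0.64) were lower. In the library labelled replicate 1 the same genes read 0.11, −0.016, 0.25, −0.083, 0.22 and −0.34, and none of the 29 passed, where 0.0893% of all genes passed upward and 0.107% downward. These 6 genes, other than Rbl2 and E2f5, were named after their values had been seen. The calls of replicate 2, here and in the lists below, come from the fit of filtered genes with a lone library. In the same fit over all probe sets hardly any passed, as given for Cdkn1a, so these calls depend on the features fitted.

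Genes known to regulate transcription of the inhibitors leaned to negative differences, 23 of 29 tested, where 6373 of all 11196 genes did. The list does not separate genes that raise the inhibitors from those that lower them, so its lean gives no direction for them. Mdm2 is also on the list of p53 targets and Egr1 on that of stress genes, both below. The median was −0.16 with all libraries, and −0.19 and −0.22 in those labelled Lyl1-null. None passed over all 4 libraries, and 4 had an unadjusted p under 0.05, all lower. Cbx7, a Polycomb protein that represses the Cdkn2a locus, read 7.98 and 7.90 in wild type, against 7.32 and 6.98 under the Lyl1-null label. Its groups did not overlap, and the difference was −0.78 (SE 0.19, adjusted p = 0.644). Gfi1, known as a repressor of Cdkn1a, read 10.24 and 9.84 against 9.36 and 9.35, a difference of −0.68 (SE 0.20, adjusted p = 0.644). The other 2, outside the naming rule, were Sp3 (−0.59) and Mdm4 (−0.51), a p53 inhibitor. Against wild type alone, the library labelled replicate 2 had 2 of the 29 past the threshold upward, Runx1 (0.99) and the checkpoint kinase gene Chek2 (0.94), and 5 downward, among 3.94% and 10.8% of all genes. The 5 were the Polycomb genes Ring1 (−1.19), Cbx7 (−0.95) and Bmi1 (−0.67), besides Smad4 (−0.75) and Zbtb17 (−0.74). In replicate 1 these read −0.049, 0.097, 0.18, −0.61, −0.21, −0.26 and −0.090 in that order, and 0 passed. Apart from Cbx7, they were named after their values had been seen.

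Other targets of p53 mostly had negative differences. Of 25 listed genes, 23 were found on the array and 17 reached the filter and were tested. Of the 17 tested, 3 were positive and 14 negative, where 4823 and 6373 of all 11196 genes were. The median was −0.13 over all libraries, and −0.060 and −0.24 in those labelled Lyl1-null, beside −0.05, −0.0086 and −0.078 over all genes tested, and none passed over all 4 libraries. Phlda3, a p53-induced inhibitor of Akt, read 6.71 and 6.67 in wild type, against 7.18 and 7.51 under the Lyl1-null label. That was a difference of 0.65 (SE 0.18, adjusted p = 0.644), in the direction of Cdkn1a. Sesn1, a p53-induced gene of the oxidative stress response, went the other way with −0.68 (SE 0.19, adjusted p = 0.644), as did the antiproliferative Btg2 with −0.47 (SE 0.17, adjusted p = 0.644). Against wild type alone, the library labelled replicate 2 had 4 of the 17 past the threshold, Phlda3 (0.82) and the nuclease gene Aen (0.93) upward and Sesn1 (−0.77) and the DNA repair gene Ddb2 (−0.75) downward, where 3.94% and 10.8% of all genes passed. In replicate 1 these read 0.49, −0.060, −0.58 and −0.070, and 0 passed. Btg2, Aen and Ddb2 were named after their values had been seen.

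Genes that degrade the inhibitors, such as the Skp2 ubiquitin ligase, stood at a median difference of 0.016, with 9 of 14 positive, and none passed over all 4 libraries or had an unadjusted p under 0.05. The 2 with the smallest p were Cops5 (−0.56), a COP9 subunit that exports p27 from the nucleus, and Cks2 (0.30). Cops5 was the 1 gene of the list past the threshold in the library labelled Lyl1-null replicate 2 against wild type alone (−0.99), where 10.8% of all genes passed downward, and it read −0.13 in replicate 1, where 0 passed.

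Immediate-early and stress genes, which can respond to cell handling, had 13 of 17 negative and a median of −0.45 (−0.22 and −0.55 in the libraries labelled Lyl1-null). None passed over all 4 libraries. Fos read 12.58 and 10.86 in wild type, against 10.44 and 9.53 under the Lyl1-null label, a difference of −1.74 (SE 0.60, adjusted p = 0.644), and the wild-type libraries differed from each other by 1.71. Dusp1 had −1.27 (SE 0.47, adjusted p = 0.644 in limma), and its wild-type libraries differed from each other by 1.02. Against wild type alone, the library labelled replicate 2 had 5 of the 17 past the threshold, all lower, where 10.8% of all genes passed downward and 3.94% upward. They were Dusp1 (−1.82), Junb (−1.63), Zfp36 (−1.39), Jun (−1.31) and Ier2 (−1.06). In replicate 1 these read −0.73, −0.012, −0.50, −0.35 and −0.25, and 0 passed. Apart from Dusp1, they were named after their values had been seen. The heat-shock gene Hspa1b, below the filter and so not in the gene-level fit, read 4.45 and 4.48 in wild type, against 4.85 and 7.86 under the Lyl1-null label, 3.39 above the wild-type mean in replicate 2. Differences of replicate 2 from the wild-type mean were 0.70 for Hspa1a, also below the filter, and 0.67 for Dnajb1, which did not pass. These 3 were likewise named after their values had been seen. The summed linear level of the genes on this list was 24480 and 17970 in wild type and 16446 and 19917 in the other group. Dnajb1 weighed heavily in each sum, at log2 values of 12.99 and 12.79 against 12.78 and 13.56, and Fos in that of wild-type replicate 1. Without overlap, 9 of 20 were lower and 5 of 20 higher, beside 17.0% and 27.3% of all probe sets. The part of these genes in the Cdkn1a values was not tested.

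**Figure D4:**
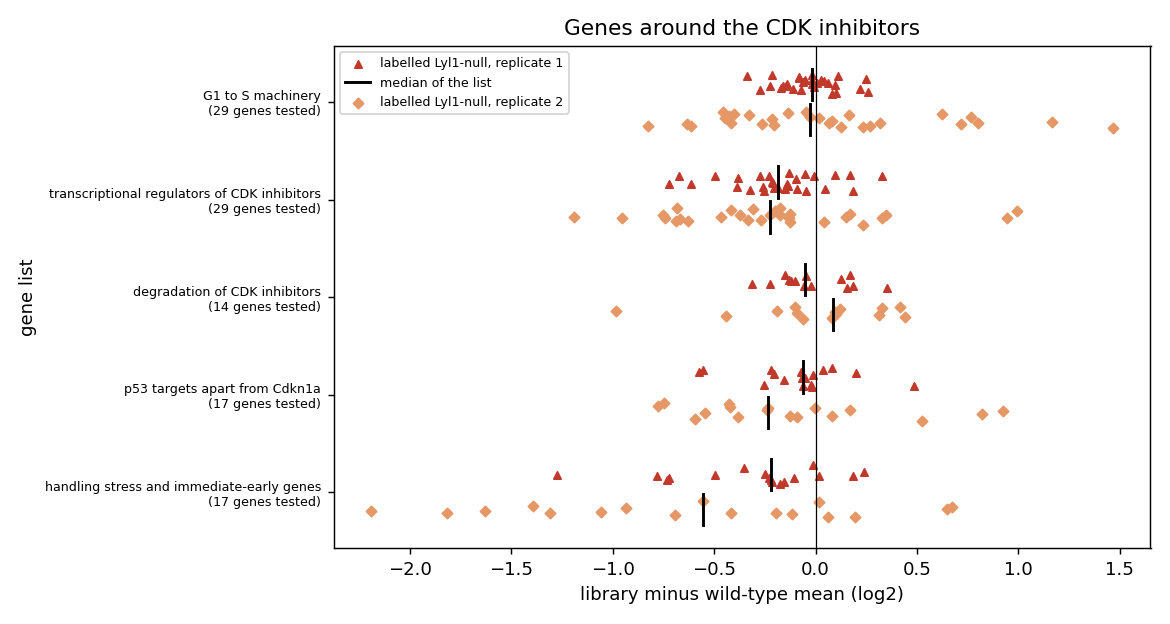
Difference of each library labelled Lyl1-null from the wild-type mean (log2, horizontal axis) for the tested genes of 5 lists around the CDK inhibitors (vertical axis), 1 point per gene and library, with the list's median as a black bar. Points spread more widely in replicate 2, and the medians of the stress list lie at −0.22 and −0.55.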

How the data were processed

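Expression was measured in 4 sorted LMPP libraries, 1 array each. The deposited values are log2 expression values from RMA, run by the authors according to the submitters' processing notes. No source used here gives its version or says whether other arrays were normalized along. The columns had medians of 5.65 to 5.76 and SDs over probe sets of 2.34 to 2.48, and were used as deposited. Gene names come from the platform annotation (34945 of 45037 probe sets with 1 symbol, 932 with several and 9160 with none, the latter 2 kinds left out of gene tests). Each gene was read from its probe set with the highest mean, and 11196 of 18193 genes, those with this mean at or above 5.69, were tested; 5.69 is the median over probe-set means. Groups were compared with limma 3.58.1 in R 4.3.3 (lmFit, eBayes, two-sided, Benjamini-Hochberg at 0.05), and a second fit took all probe sets without a filter. Adjusted p-values come from these fits or, where said, from the same fits with a library left out or with an alternative setting. Differences are Lyl1-null minus wild type, with the SE from the moderated variance. The number of arrays limits the precision. The fit of 2 against 2 libraries was tested on simulated data with independent noise. That covers neither a deviating library nor the fits with a library left out.

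All 7 members were named with every probe set, and of each list the genes past the threshold (up to 4) or otherwise the 2 with the smallest p. The nearest genes to Cdkn1a were the 5 at the smallest distance, with RIKEN clones and predicted genes skipped. The members and lists were chosen with earlier results of these data known. Some markers are not reported here. Alternatives were array weights, a robust or trended prior, median centring or quantile normalization, the mean of probe sets, other filters, a block for the replicate number, a threshold of 0.10 and each library left out.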

Additional observations from a re-analysis of the deposited data

How the results depend on the processing

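Cdkn1a kept a positive difference under all 14 alternatives, from 1.36 to 2.40, with limma adjusted p-values from 0.00433 to 0.790. It passed in 2 of them, without replicate 1 or without replicate 2 of the libraries labelled Lyl1-null. Leaving out each library in turn gave 1.56 to 2.40 for Cdkn1a, 0 to 1 inhibitor genes past the threshold and 1 to 1652 genes past it over all genes tested. The latter count was 2 without wild-type replicate 2 and 22 without the library labelled Lyl1-null replicate 2. Over all genes tested the count was 4 without the filter or with a trended prior, 0 with the mean of probe sets, 2 with quantile normalization or median centring, 5 with array weights and 6 at a threshold of 0.10. In none of these settings did an inhibitor gene pass. Deviations from the group means correlated at −0.38 between same-numbered libraries and, as 2 libraries per group force, at 0.38 between unlike numbers, so the numbers were not taken as pairs. With the replicate number as a block the count was 3 and Cdkn1a had an adjusted p of 0.288. A crossed block, added after seeing the data, gave 1 gene and 0.158. Some differences that had not passed changed sign. Cdkn1b read 0.026 with quantile normalization. Cdkn2c read 0.019 there and −0.49 to 0.43 with single libraries left out. With single libraries left out, Cdkn2d ranged from −0.15 to 0.35, Cdkn1c from −0.063 to 0.40 and probe set 1421679_a_at of Cdkn1a from −0.11 to 1.58. The cause was not tested. The median difference of all genes was −0.05 as deposited, 0.04 with quantile normalization and −0.12 with median centring. Probe sets under the filter, those of Cdkn1c, Cdkn2a and Cdkn2b and 1 of Cdkn1b, carry signal near background, so differences there are not resolved.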

Other observations

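Other genes whose symbols begin like those of the inhibitors were on the array, though they belong to neither inhibitor family. Cdkn3, which encodes a phosphatase of Cdk2, read 7.98 and 7.34 in wild type, against 7.85 and 7.51 under the Lyl1-null label, within the wild-type span. Cdkn2aip, which encodes a partner of Arf, read 6.05 and 6.11 against 5.67 and 5.87 in probe set 1429320_at. Its second probe set, below the expression filter, read 3.38 and 3.30 against 2.97 and 3.15. Both stood lower in both libraries labelled Lyl1-null, with differences of −0.31 (SE 0.16, adjusted p = 0.581) and −0.28 (SE 0.16, adjusted p = 0.582) that did not pass in limma over all probe sets. Cdkn2aipnl had differences of −0.07 and 0.01 in its 2 probe sets.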
